A study of Mus musculus with 34 samples.

Results

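Peretinoin-fed Pdgf-c transgenic livers were compared with Pdgf-c transgenic livers from the basal diet, both at week 20. There were 5 arrays in each group, 10 of the 34 arrays of the series. Both groups carry the transgene for PDGF-C (platelet-derived growth factor C) and differ in the diet, which contained 0.06% peretinoin from weaning at week 4 in the first group. The 5 wild-type (C57/B6) livers of week 20, labelled without peretinoin, are given beside them, and the transgenic mice of week 48, 5 on each diet, serve for a comparison between ages. The other 9 arrays, from wild-type livers and tumours of week 48, enter only the common estimate of the spread. Per the series' design text, the week 20 mice were killed to study the progress of liver fibrosis. The labels used here give neither the sex of the mice, nor the promoter of the transgene, nor whether an array holds the RNA of 1 animal, so p-values measure the spread between these samples.

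PDGF-C is a growth factor that acts through the PDGF receptors, which sit mainly on fibroblasts and stellate cells, the vitamin A-storing cells of the liver. Stellate cells that become activated turn into myofibroblasts and lay down collagen and other matrix proteins. Peretinoin is an acyclic retinoid, a synthetic relative of vitamin A that binds retinoid receptors. Those receptors switch on genes such as Cyp26a1 and Rarb in many tissues.

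RNA was measured on Affymetrix whole-genome mouse arrays, and the values are MAS5 signals, which are scaled to a common mean on each array. Changes are differences of log2(signal + 16), peretinoin minus basal diet, with their moderated standard error. Because of the added 16 they understate the change of dim genes. A gene was called when its adjusted p from limma was under 0.05 (Benjamini-Hochberg over all 13099 genes tested, two-sided). Only such genes are said to rise or fall below, and all groups at week 20 have 5 arrays.

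Several of the 10 arrays stood apart before any gene was compared. The ratio of the 3' to the 5' probe set of Actb (beta-actin), a sign of how complete the labelled RNA is, was 2.66, 3.31, 2.54, 2.38 and 1.70 in the peretinoin replicates 1 to 5, against 1.74, 1.64, 1.68, 1.62 and 1.74 on the basal diet. It was 1.81 to 2.16 in wild-type livers and 1.25 to 3.31 over all arrays of the series. Thus 4 of the 5 peretinoin arrays lay above every basal diet array, and the mean log2 ratio was higher by 0.548 (two-sided exact permutation test, p = 0.0238 over 252 assignments, smallest possible 0.00794). The ratio of the 3' to the middle Actb probe set was 1.66 to 2.37 with peretinoin and 1.37 to 1.52 on the basal diet, so that all 5 peretinoin arrays lay above all basal diet arrays (log2 difference 0.464, exact p = 0.00794). The 3' to 5' ratio of Gapdh was higher by 0.199 on the log2 scale (exact p = 0.0317). Transcripts of skeletal muscle (12 of 12 listed genes measured) averaged 8.73 and 12.3 on the log2 scale in peretinoin replicates 3 and 5. They lay between 5.42 and 5.79 in the other peretinoin arrays and between 5.50 and 5.88 on the basal diet. Transcripts of pancreatic acinar cells (11 of 16 measured) averaged 11.2 in basal diet replicate 5, against at most 6.32 with peretinoin and 6.33 in the rest of the basal diet arrays. The tissue label was met in all 10: the 9 measured hepatocyte markers averaged 13.8 to 14.1 with peretinoin and 13.4 to 14.1 on the basal diet.

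**Figure D1:**
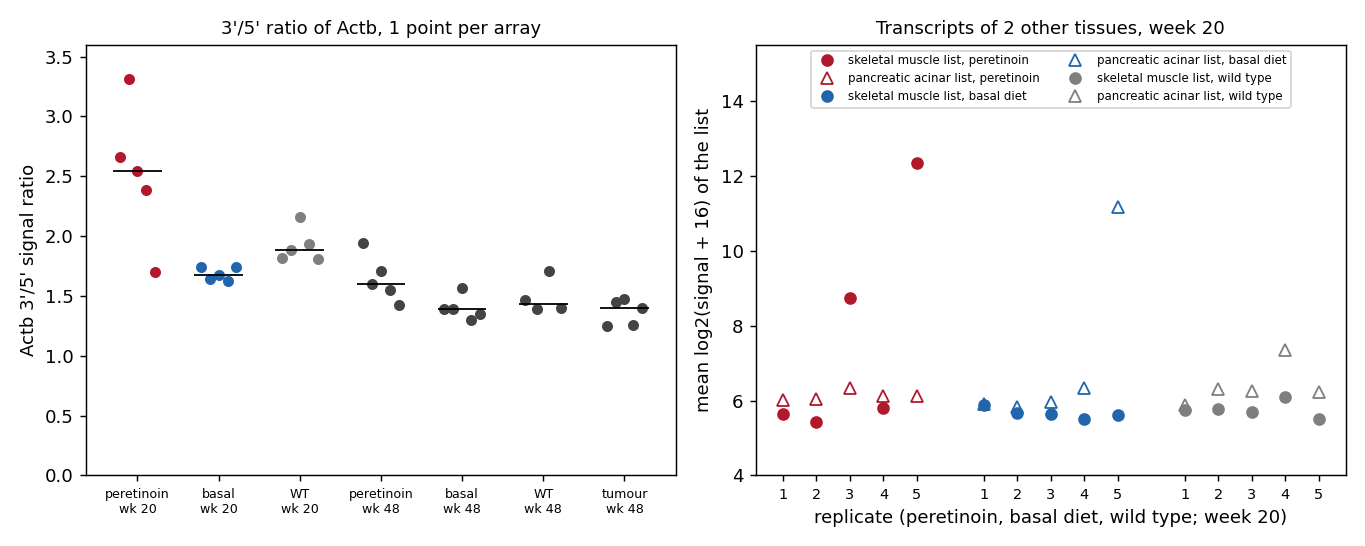
Left, the ratio of the 3' to the 5' Actb probe set, 1 point per array, with group medians as lines. Right, the mean log2(signal + 16) of 12 skeletal muscle genes (filled circles) and 11 pancreatic acinar genes (open triangles) on each week 20 array. Peretinoin replicate 2 has the highest ratio, 3.31, and peretinoin replicates 3 and 5 and basal diet replicate 5 stand out on the right.

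Over all genes, 378 were called (2.89% of 13099), of which 215 were higher with peretinoin (1.64%) and 163 lower (1.24%). Of these, 68 changed by 2-fold or more, 23 higher and 45 lower. In 195 of the called genes the peretinoin and basal diet arrays did not overlap at all, and 657 of all genes (5.02%) had groups that did not overlap, 2.05% higher and 2.96% lower with peretinoin. With the Actb ratio of each array added to the model as a covariate, 0 genes were called by limma. In that fit 949 genes had an unadjusted p under 0.05, against 2549 without the covariate. The smallest adjusted p in it was 0.133, for Insig1. All 378 called genes kept their sign in that fit, at a median of 0.636 times their change, and their median standard error was 1.34 times as large. The ratio goes with the diet in these arrays, so changes in the covariate fit are given beside the gene groups. Without the 3 arrays that carry muscle or pancreas transcripts, 524 genes were called, 308 higher and 216 lower. Without peretinoin replicates 1, 2, 3 or 5, each left out alone, 104, 51, 139 and 879 genes were called, and without basal diet replicates 1, 2 or 3 the counts were 142, 104 and 81. Of the 59 called genes named here, 16 were called whichever single array was left out: Insig1, Serpina7, Hectd2os, Derl1, Sucnr1, Rmdn2, Elovl5 and Scd1 among those that rose, and Itgbl1, Timp3, Lrtm2, Cyp39a1, Thsd7a, Cyp1b1, Art4 and Ripk4 among those that fell. The other 43 lost their call without at least 1 array, and none of the 59 changed its sign in these fits.

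The receptor that PDGF-C activates was lower with peretinoin. Pdgfra, the PDGF alpha receptor, gave signals of 1199, 1009, 2027, 2468 and 2410.1 in the peretinoin livers. On the basal diet it gave 4857, 3604, 4398, 4257 and 3606, and in wild-type livers 257.5, 407.9, 109, 168.5 and 131. Each peretinoin array lay below each basal diet array and above each wild-type array. The log2 change was -1.26 ± 0.29 (adjusted p = 0.0179), a level 2.39-fold higher on the basal diet, and both of its probe sets moved the same way (-1.26 and -0.95). In the fit with the Actb ratio the change was -0.42. The call was lost in 4 of the 10 fits that leave out 1 array (peretinoin replicates 1 and 2, basal diet replicates 1 and 3), with adjusted p up to 0.0918. In these bulk samples, fewer Pdgfra-bearing cells and less Pdgfra RNA per cell cannot be told apart.

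Pdgfb, the ligand of the beta receptor, fell as well. Its signals were 131.3, 113.9, 113.7, 195.9 and 247.4 with peretinoin and 261, 345.1, 343.5, 286.1 and 312.7 on the basal diet, with no overlap, against 167.5, 159.3, 111, 127.3 and 185.1 in wild-type livers. The log2 change was -0.94 ± 0.22 (adjusted p = 0.0213), and -0.16 with the Actb covariate. It was lost in 5 of the 10 fits without 1 array (peretinoin replicates 1 to 3, basal diet replicates 2 and 3). Thus 2 of the 6 PDGF ligands and receptors fell, beside 1.24% of all genes, 0 rose, and the median of the 6 was -0.38, beside -0.02 over all genes. With the covariate that median was 0.15. Pdgfrb, the beta receptor, was not called, at 1821, 1398, 2725, 2307 and 2316 with peretinoin and 2958, 2172, 2486, 2815 and 2623 on the basal diet (log2 -0.33 ± 0.23, adjusted p = 0.452). Its groups overlapped, and both stood far above the wild-type signals of 339, 354.8, 118.3, 142.8 and 329.9. Pdgfc itself had a change of 0.53 ± 0.20 (adjusted p = 0.129), with 547.5, 353.2, 744.2, 380.5 and 346.7 in the peretinoin livers and 386.3, 376, 321.1, 284.1 and 210 on the basal diet. Wild-type livers gave 362.5, 258.9, 317.2, 331.9 and 411.7, and whether the mouse probe set binds the RNA of the transgene was not tested.

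Few matrix genes passed the test. Among 26 measured extracellular matrix genes, 2 fell, beside 1.24% of all genes, and 0 rose, and 23 of 26 had a change below 0 (6848 of all 13099 genes), with a median of -0.50, and of 0.00 with the Actb covariate. Mgp (matrix Gla protein, an inhibitor of calcification) fell, with signals of 915.9, 1150, 1521, 745.2 and 1969 in the peretinoin livers. On the basal diet they were 4408, 3407, 2747, 3167 and 3083, and in wild-type livers 210.6, 261.6, 93.1, 185.6 and 121.8. All 5 peretinoin arrays lay below all basal diet arrays (log2 -1.47 ± 0.35, adjusted p = 0.0208; -1.34 with the Actb covariate). Without peretinoin replicates 1 or 2 or basal diet replicates 1 or 2 it had an adjusted p of up to 0.0648. Col4a2, a chain of the basement membrane collagen, gave 976.4, 814.1, 738.8, 1471 and 1113 with peretinoin, against 1691, 1547, 1472, 1582 and 1996 on the basal diet. Here the 2 groups nearly touched, at 1471 and 1472, and the change of -0.72 ± 0.21 passed the threshold narrowly (adjusted p = 0.0497; -0.18 with the Actb covariate). Without the 3 arrays that carry other tissues it was -0.57 and not called (adjusted p = 0.199), and 8 of the 10 fits without 1 array ended the call.

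The fibrillar collagens were not called. Col1a1, a chain of type I collagen, gave 583.1, 449.9, 380, 822.5 and 612.2 with peretinoin and 997.9, 670.5, 765.8, 793.3 and 863.2 on the basal diet (log2 -0.55 ± 0.29, adjusted p = 0.299). Wild-type livers had 46, 15.8, 20.6, 38.4 and 48.6, below every array of both diets. Its other kept probe set had a change of 0.30, the opposite way. Col3a1, the type III collagen chain, did not overlap between the diets, at 5771, 6314, 4251, 4491 and 5427 with peretinoin against 7371, 6457, 6519.6, 6861 and 7701 on the basal diet, but its change of -0.42 ± 0.25 did not pass (adjusted p = 0.357). In all, 8 of the 26 matrix genes had groups that did not overlap, each lower with peretinoin, beside 2.96% of all genes. With the Actb ratio in the model the change of Col1a1 was 0.10.

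Among 12 matrix proteases and inhibitors, the tissue inhibitors of metalloproteinases carried the 2 calls, both lower, beside 1.24% of all genes called lower. Timp3, which is bound to the matrix, gave 596.6, 644.1, 626.9, 740.4 and 1225 with peretinoin and 2577, 2086, 2525, 1383 and 1365 on the basal diet. The groups did not overlap, although peretinoin replicate 5, at 1225, came close to the lowest basal diet signal of 1365. The change was -1.36 ± 0.27 (adjusted p = 0.00773), its 4 probe sets had changes of -1.39 to -1.10, and with the Actb covariate it was -0.89. Timp2 gave 886.3, 774.9, 1334, 1455 and 2072 with peretinoin and 2375, 2301, 2399, 2227 and 1519 on the basal diet, which overlap (log2 -0.79 ± 0.22, adjusted p = 0.0476). Its change with the Actb covariate was -0.03, and 7 of the 10 fits without 1 array ended the call, against 0 for Timp3. Timp1, an inhibitor known to rise in fibrosis, was not called (log2 -0.63 ± 0.31, adjusted p = 0.252). The median of the 12 genes was -0.50, and -0.04 with the covariate.

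Markers of the matrix-forming cells did not pass. Of 16 measured markers of stellate cells and myofibroblasts, 0 were called, with a median of -0.13 (0.27 with the Actb covariate). Acta2, an actin that stellate cells make once activated, gave 930.4, 578.7, 736.2, 487.7 and 746 with peretinoin and 774.2, 878, 794.4, 917 and 1084 on the basal diet (log2 -0.37 ± 0.32, adjusted p = 0.558). None of 17 TGF-beta signalling genes, a pathway that drives scarring, was called, with a median of -0.35 (-0.01 with the covariate). The lowest p in that list was that of Tgfbr3, the accessory type III receptor (log2 -0.63 ± 0.20, adjusted p = 0.0734).

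**Figure D2:**
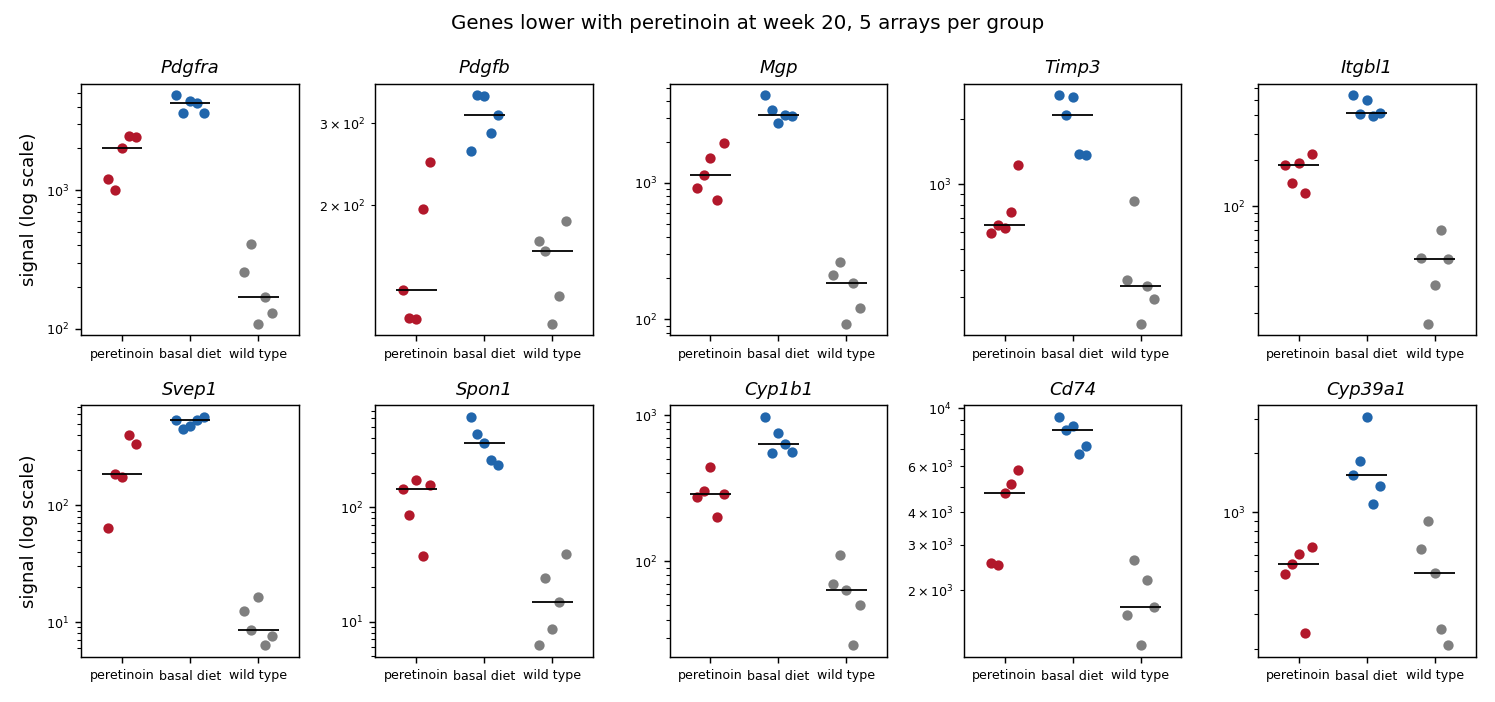
Signals of 10 genes that were lower with peretinoin at week 20 (log axis), 1 point per array, with peretinoin, basal diet and wild-type livers from left to right and the group median as a line. In all 10 genes the highest peretinoin signal lies below the lowest basal diet signal, and in Pdgfra, Mgp, Itgbl1, Svep1 and Cyp1b1 each peretinoin array lies above each wild-type array.

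Itgbl1, Spon1, Svep1 and Htra3 were among the 12 largest falls of genes whose groups did not overlap. Itgbl1 (integrin beta-like 1) gave 186.7, 143.4, 191.5, 123.2 and 220.8 with peretinoin, against 537.4, 403.1, 498.8, 393.4 and 412.9 on the basal diet and 46, 17, 30.4, 70.3 and 45.4 in wild-type livers. Its change was -1.31 ± 0.24 (adjusted p = 0.00564; -0.95 with the Actb covariate). Spon1 (spondin 1, a secreted matrix adhesion protein) fell by 1.61 (SE 0.36, adjusted p = 0.016), at 145.4, 86.2, 174, 37.7 and 156.8 in the peretinoin livers and 617.2, 440.4, 365.3, 257.9 and 235.9 on the basal diet. Svep1, a large extracellular adhesion protein, gave 63.9, 185.2, 173.2, 401.4 and 335.3 with peretinoin and 533.7, 448.9, 477.5, 533.3 and 571.8 on the basal diet, while wild-type livers had 12.5, 8.5, 16.4, 6.3 and 7.6. The groups of Svep1 lay apart by the margin between 401.4 and 448.9 (log2 -1.30 ± 0.34, adjusted p = 0.0313; -0.76 with the covariate). Htra3, a secreted serine protease, had a change of -1.57 ± 0.42 (adjusted p = 0.038), but its other probe set had 0.04 and the mean of both was not called (-0.76, adjusted p = 0.0853). With the covariate Htra3 had -1.07 and Spon1 -1.39. The calls of Spon1, Svep1 and Htra3 were lost in 3, 6 and 7 of the 10 fits without 1 array.

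Lrtm2, a leucine-rich transmembrane protein, had the largest of these falls, with 277.4, 112.2, 17.6, 102.4 and 351 in the peretinoin livers and 762.8, 599.5, 755, 387.1 and 624.2 on the basal diet (log2 -2.15 ± 0.40, adjusted p = 0.00678; -1.14 with the covariate). It was at 55.5, 25, 16, 32.5 and 33.6 in wild-type livers. Cyp39a1, an oxysterol hydroxylase of bile acid synthesis, gave 481.8, 540.2, 609.8, 240.5 and 663.8 with peretinoin, against 1552, 1830.3, 3079, 1096 and 1354 on the basal diet and 644.1, 905.2, 486.4, 253.1 and 207.5 in wild-type livers. The peretinoin and wild-type ranges of Cyp39a1 overlap, and its change against the basal diet was -1.76 ± 0.35 (adjusted p = 0.00816; -1.83 with the covariate). Thsd7a had a change of -1.72 ± 0.34 (adjusted p = 0.00773), Scube1 of -1.53 ± 0.34 (adjusted p = 0.0147), Baalc of -1.33 ± 0.35 (adjusted p = 0.0311) and Pla2g7, the secreted platelet-activating factor acetylhydrolase of macrophages, of -1.38 ± 0.39 (adjusted p = 0.0471). Signals of Thsd7a, Scube1 and Baalc were low, at most 137.3 in any peretinoin or basal diet array apart from Thsd7a, which reached 366. Cyp1b1, a P450 known to oxidise retinoids and oestrogens, gave 277.1, 301.5, 440.9, 201 and 287.6 with peretinoin, against 972.6, 549.4, 757.9, 629.7 and 562.9 on the basal diet and 70.5, 110.7, 64, 26.6 and 49.9 in wild-type livers. It fell by 1.17 (SE 0.23, adjusted p = 0.00773), and its change with the Actb covariate was -1.25. With that covariate Pla2g7 had -0.64, Thsd7a -1.78, Scube1 -1.32 and Baalc -1.09. Adding 64 before the log2 gave -0.87 for Scube1 and -0.78 for Baalc, both still called. Without 1 array the calls of Pla2g7, Baalc and Scube1 were lost in 7, 5 and 2 of 10 fits.

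Among immune cell markers a single call was made. Cd74, the invariant chain of MHC class II, gave 2543, 2505, 4722, 5112 and 5796 in the peretinoin livers and 9275, 8242, 8588, 6697 and 7151 on the basal diet, with no overlap, against 1607, 2629, 1231, 2194 and 1735 in wild-type livers. Its change was -1.02 ± 0.26 (adjusted p = 0.0267), and -0.33 with the covariate, and it was lost in 5 of the 10 fits without 1 array. It was the 1 called gene of the 11 measured markers of recruited monocytes and macrophages, beside 1.24% of all genes called lower. The median of the 11 was -0.54 (-0.14 with the covariate). All 11 had a change below 0 (6848 of all 13099 genes), and their mean log2 signal ran from 7.57 to 8.56 with peretinoin and from 8.43 to 8.78 on the basal diet. Gpnmb, a glycoprotein of lipid-laden macrophages, had -1.53 ± 0.47 and was not called (adjusted p = 0.0606; -0.55 with the covariate). Of 14 markers of Kupffer cells and macrophages 0 were called, with a median of -0.27, which turned to 0.07 with the covariate. Changes were below 0 in 10 of the 14 and above 0 in 4, from -1.11 for C1qc to 0.94 for Clec4f. C1qc, a complement chain made by macrophages, had groups that did not overlap and a change of -1.11 ± 0.36 (adjusted p = 0.0785; -0.20 with the covariate). Of 15 interferon response genes 1 fell, Oasl2 (log2 -0.92 ± 0.21, adjusted p = 0.016), beside 1.24% of all genes. The median of the list was -0.38, with all 15 below 0 (6848 of all 13099 genes). Oasl2 lost its call in 2 of the 10 fits. With the Actb covariate that median was -0.44. Markers of T and NK cells, B and plasma cells, neutrophils and endothelium had 0 calls each.

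Several usual target genes of retinoid receptors showed no response that passed the test, while Tgm2, given below, rose. Cyp26a1, the enzyme that degrades retinoic acid, gave 3573, 2453, 1621, 2027 and 2599 with peretinoin. On the basal diet it gave 2068, 2262, 4360.5, 2297 and 2423, and in wild-type livers 3896, 1086, 1559.9, 2631 and 2229.5. The groups overlapped throughout (log2 -0.12 ± 0.31, adjusted p = 0.881). Rarb, retinoic acid receptor beta, had a change of -0.38 ± 0.23 (adjusted p = 0.37), Cyp26b1 of 0.09 ± 0.46 (adjusted p = 0.943) and Dhrs3, a retinal reductase, of 0.34 ± 0.15 (adjusted p = 0.195). Lrat, which esterifies retinol for storage in stellate cells, had 0.37 ± 0.27 (adjusted p = 0.476). Of the 6 retinoid receptors, none was called; Rara had the lowest p, at dim signals of 5.9 to 77.9 with peretinoin and 54.9 to 93.9 on the basal diet (log2 -1.15 ± 0.42, adjusted p = 0.118).

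Of the 28 measured genes of retinoid metabolism, storage and response, 2 rose and 0 fell, beside 1.64% of all genes that rose. Tgm2, tissue transglutaminase, which retinoic acid induces in several cell types, gave 8610.4, 6709.6, 7806, 7146 and 6465 with peretinoin, against 3860.2, 4051, 3029, 5372 and 5936 on the basal diet and 4846, 2663, 4808, 3744 and 5179 in wild-type livers. The groups did not overlap (log2 0.75 ± 0.19, adjusted p = 0.026; 0.77 with the Actb covariate), and 4 of its 5 probe sets were above 0, in a range of -0.27 to 0.75. Fabp5, a carrier of fatty acids and retinoic acid, gave 10959, 19158, 16900.4, 20778 and 9020.3 with peretinoin. On the basal diet it gave 5768, 2567, 3425, 10166 and 8512, so replicate 4 of that group came within the peretinoin range (log2 1.45 ± 0.38, adjusted p = 0.0332; 1.01 with the covariate). Tgm2 and Fabp5 lost their calls in 6 and 7 of the 10 fits without 1 array. With the mean of its probe sets Tgm2 had 0.37 (adjusted p = 0.287). The median of the 28 genes was 0.18, and 0.09 with the covariate.

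Of the genes of cholesterol synthesis 3 of 15 rose with peretinoin, and of those of fatty acid synthesis 3 of 17, with 0 fallen in either list, beside 1.64% of all genes that rose. Insig1, which holds the sterol sensor SCAP in the endoplasmic reticulum and is itself a target of the SREBP factors, had the smallest p of all genes. It gave 2986, 3949, 2732, 2478 and 3622 in the peretinoin livers, against 1698, 1137, 1527, 1523 and 1231 on the basal diet and 2551, 2159, 2338, 2567 and 2092 in wild-type livers. Every peretinoin array lay above every basal diet array (log2 1.13 ± 0.14, 2.19-fold, adjusted p = 6.57e-05). With the Actb covariate the change was 0.997 (adjusted p = 0.133), and of 24 alternative settings that fit was the only one in which Insig1 was not called. It was also called without each single array, and without the 3 arrays that carry other tissues the change was 1.07 (adjusted p = 0.0015).

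Pmvk, phosphomevalonate kinase of the mevalonate pathway, gave 1076, 1144, 1219, 2002 and 1371 with peretinoin and 451.6, 426.7, 579.4, 1193 and 944.1 on the basal diet (log2 0.99 ± 0.26, adjusted p = 0.0309; 1.33 with the covariate, lost in 7 of 10 fits without 1 array). Its basal diet replicate 4, at 1193, lay within the peretinoin range. Sc5d, the sterol C5 desaturase, gave 11894, 14586, 12208, 17056 and 13238 with peretinoin and 7439.8, 8085, 7712, 11540.2 and 12197 on the basal diet, and replicate 5 on the basal diet lay inside the peretinoin range (log2 0.57 ± 0.16, adjusted p = 0.043). Of its 3 probe sets 1 had the opposite sign, -0.13, their mean was 0.30 (adjusted p = 0.532), and its call too was lost in 7 of the 10 fits. Insig1, Pmvk and Sc5d were the 3 risen genes of the 15 measured in cholesterol synthesis, with 0 fallen. All 15 had a change above 0 (6251 of all 13099 genes), with a median of 0.62, and of 1.004 with the Actb covariate. Hmgcs1, the cytosolic HMG-CoA synthase, gave 11621, 13217, 15409.9, 20309 and 13116 with peretinoin and 6080.2, 4888, 3817, 12474 and 14318 on the basal diet and did not pass (log2 0.99 ± 0.30, adjusted p = 0.0602). On the basal diet, replicates 1 to 3 of Pmvk, Sc5d and Hmgcs1 each lay below replicates 4 and 5.

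Fatty acid synthesis had 3 risen and 0 fallen genes of 17, with a median of 0.66 (0.78 with the covariate). Elovl5, an elongase of polyunsaturated fatty acids, gave 19504, 20776, 14689, 18833 and 14182 with peretinoin, against 12748, 10968, 9110.4, 9569.5 and 11470.4 on the basal diet and 16998, 9791, 13981, 8169 and 13147 in wild-type livers. Its diets did not overlap (log2 0.70 ± 0.14, adjusted p = 0.00701; 0.48 with the covariate). Scd1, stearoyl-CoA desaturase, gave 32316, 43021, 33519, 37512 and 29900.5 with peretinoin and 15696, 24155, 17878, 25204 and 30481 on the basal diet, where replicate 5 overlapped (log2 0.67 ± 0.13, adjusted p = 0.00701; 0.41 after quantile normalisation, adjusted p = 0.0425). Fads1, the delta-5 desaturase, rose by 0.51 (SE 0.14, adjusted p = 0.0368). Fasn, fatty acid synthase, had a larger change that did not pass, with 5014, 6012, 3827, 14973 and 8871 in the peretinoin livers and 1622, 1622, 2121, 4194 and 5462 on the basal diet (log2 1.38 ± 0.40, adjusted p = 0.0518). Srebf1, the SREBP gene of fatty acid synthesis, was not called (log2 0.59 ± 0.23, adjusted p = 0.141). Outside that list, Acss2, which makes cytosolic acetyl-CoA from acetate, gave 5317, 5938, 5261, 8175 and 4955 with peretinoin and 2742, 1981, 2187, 4122 and 3233 on the basal diet and rose with no overlap (log2 1.08 ± 0.26, adjusted p = 0.0243; 1.08 with the covariate). Fads1 and Acss2 lost their calls in 6 and 6 of the 10 fits without 1 array.

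The promoters of 3 genes of the sterol list are shown because their start regions hold letters that SREBP-responsive promoters are known for. The sequences are the 250 bases before the start site from RefSeq on GRCm38.p6, 5′ to 3′ on the gene's strand. Capitals mark CCAAT, the letters bound by NF-Y, CACGTG, an E-box, and TCACNCCAC, a sterol regulatory element, each on either strand.
Insig1, chr5:28071162-28071411, plus strand: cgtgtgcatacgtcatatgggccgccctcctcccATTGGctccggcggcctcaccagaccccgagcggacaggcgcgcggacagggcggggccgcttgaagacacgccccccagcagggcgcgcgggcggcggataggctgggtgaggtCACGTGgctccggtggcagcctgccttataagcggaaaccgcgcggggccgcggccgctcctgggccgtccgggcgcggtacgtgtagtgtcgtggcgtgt
Sc5d, chr9:42264301-42264550, minus strand: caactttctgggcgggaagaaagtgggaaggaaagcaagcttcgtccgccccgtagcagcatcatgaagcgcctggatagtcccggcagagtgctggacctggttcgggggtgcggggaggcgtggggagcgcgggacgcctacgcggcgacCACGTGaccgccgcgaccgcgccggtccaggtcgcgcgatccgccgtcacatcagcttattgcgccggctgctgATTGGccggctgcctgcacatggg
Hmgcs1, chr13:119690101-119690350, plus strand: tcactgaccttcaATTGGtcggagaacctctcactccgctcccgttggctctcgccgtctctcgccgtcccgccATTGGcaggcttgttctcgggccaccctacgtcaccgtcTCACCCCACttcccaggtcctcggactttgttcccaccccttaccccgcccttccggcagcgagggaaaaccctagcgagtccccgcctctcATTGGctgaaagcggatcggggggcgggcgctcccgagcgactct

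Insig1 and Sc5d, which rose, each hold 1 CCAAT and 1 CACGTG, and no TCACNCCAC in this window. Hmgcs1, which was not called, holds 3 CCAAT and 1 TCACNCCAC. Over all 32851 promoters of the table, 33.8% hold CCAAT, 6.02% hold CACGTG and 1.05% hold TCACNCCAC on either strand. Of the 32 genes in both synthesis lists, 26 had promoters in the table, 35 in all, and 65.7%, 14.3% and 5.71% of those held the motifs in the same order. The motifs were chosen after the expression values were seen. The promoters shown were picked for these letters, so finding the letters in them was fixed in advance. Of the 6 called genes of both lists 4 had promoters in the table, and only those of Insig1 and Sc5d are shown. A match is a description of letters, not a binding site.

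**Figure D3:**
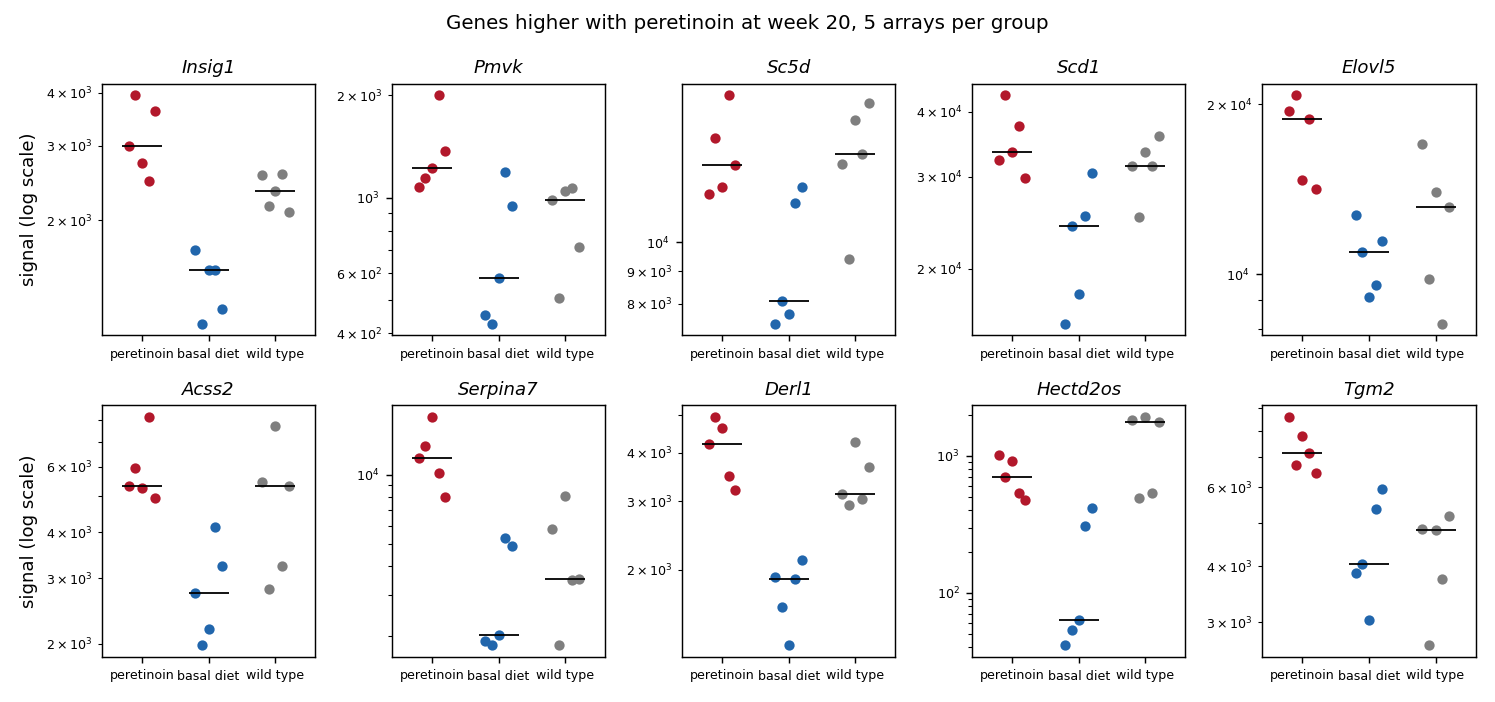
Signals of 10 genes that were higher with peretinoin at week 20 (log axis), 1 point per array, with peretinoin, basal diet and wild-type livers from left to right and the group median as a line. Peretinoin and basal diet arrays do not overlap in Insig1, Elovl5, Acss2, Serpina7, Derl1, Hectd2os and Tgm2, and do overlap in Pmvk, Sc5d and Scd1.

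The largest rises among genes whose groups did not overlap were Hectd2os and Serpina7. Hectd2os, a noncoding RNA gene, gave 1010, 700.3, 916.4, 538 and 478 with peretinoin, against 41.3, 53.9, 63.4, 309 and 418.3 on the basal diet and 1832, 495.3, 1931, 536.1 and 1780.1 in wild-type livers (log2 2.41 ± 0.46, adjusted p = 0.00701; 1.95 with the covariate). Basal diet replicates 4 and 5 were far above replicates 1 to 3. Serpina7, thyroxine-binding globulin of the plasma, gave 11853, 13316, 17821, 10174 and 7992 with peretinoin, against 1888, 1814, 2005, 5294 and 4891 on the basal diet and 5785, 1822, 8089.8, 3491 and 3512 in wild-type livers. That is a 4.17-fold rise (log2 2.06 ± 0.31, adjusted p = 0.00093; 1.46 with the covariate), to a level above wild-type livers as well (1.55 ± 0.31, adjusted p = 0.000579).

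Derl1, a membrane protein of endoplasmic reticulum quality control, gave 4220.4, 4955, 4641, 3482 and 3216 with peretinoin and 1917, 1599, 1274, 1894 and 2119 on the basal diet (log2 1.22 ± 0.20, adjusted p = 0.00223). Only 2 of its 4 probe sets were above 0, in a range of -0.14 to 1.22, their mean was 0.24 (adjusted p = 0.147), and with the Actb covariate the change was 0.69. Sucnr1, the succinate receptor, gave 4368, 4366, 5888, 4931 and 3574 with peretinoin and 1748, 1928, 1887, 3360 and 2719 on the basal diet (log2 1.01 ± 0.21, adjusted p = 0.00963; 0.97 with the covariate). Alcam, a cell adhesion molecule, gave 4509, 5978, 3838, 5095 and 5049 with peretinoin, against 2853, 1882, 2219.8, 2924 and 2256 on the basal diet and only 897.5, 906.7, 1241, 467.3 and 858.8 in wild-type livers (log2 1.01 ± 0.25, adjusted p = 0.026), and 4 of its 5 probe sets were above 0, with a mean of 0.44 (adjusted p = 0.187). Fitm1, a gene of lipid droplet formation, rose by 1.31 (SE 0.32, adjusted p = 0.026), Rmdn2 by 0.92 (SE 0.19, adjusted p = 0.00993) and Gstm7, a glutathione transferase, by 0.86 (SE 0.20, adjusted p = 0.0179). Rab26os, a noncoding RNA gene, rose by 1.15 (SE 0.29, adjusted p = 0.028) and Tlr5, the flagellin receptor, by 0.84 (SE 0.24, adjusted p = 0.048). Without the arrays that carry other tissues Rab26os and Tlr5 were not called (adjusted p = 0.0721 and 0.0516). With 1 array left out, calls were lost in 4 of 10 fits for Alcam, 6 for Fitm1, 5 for Gstm7, 6 for Rab26os and 8 for Tlr5.

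Genes with higher expression in male mouse liver, many of which depend on growth hormone pulses, varied widely on the basal diet. Of 11 measured, 2 rose, beside 1.64% of all genes, and 0 fell, with a median of 0.78 (0.40 with the Actb covariate). Elovl3, a fatty acid elongase, gave 6746, 3164, 11307, 2814 and 600.9 with peretinoin, against 98.7, 343.6, 65.7, 2069 and 2662 on the basal diet and 14819, 1533, 5943, 2789 and 11888 in wild-type livers (log2 2.89 ± 0.78, adjusted p = 0.0368; 1.84 with the covariate). Nudt7, a peroxisomal coenzyme A hydrolase, gave 20182, 28769, 27982, 25004 and 16258 with peretinoin, against 4461, 6473, 4151, 18108 and 19061 on the basal diet and 25462, 22284, 28325, 32906 and 32292 in wild-type livers (log2 1.46 ± 0.33, adjusted p = 0.0158; 1.01 with the covariate). Hsd3b5, a steroid enzyme, was at 2809, 3474, 17097, 9839 and 284.2 with peretinoin and at 28.8, 12.5, 14, 6824 and 2441 on the basal diet and did not pass (log2 3.91 ± 1.16, adjusted p = 0.0562; 1.36 with the covariate). In all 3 genes basal diet replicates 1 to 3 were low while replicates 4 and 5 came into the peretinoin range. Basal diet replicates 1 to 3 each lay below replicates 4 and 5 also for Serpina7, Pmvk, Sc5d, Hmgcs1, Scd1 and Fasn. The same order held for Acss2, Fabp5, Sucnr1, Tgm2, Hectd2os, Ghr and 1810008I18Rik, but not for Insig1, Elovl5, Derl1 or Alcam. Some falls had the reverse order: in Timp3, Timp2, Cd74, Spon1 and Cyp39a1 basal diet replicates 1 to 3 each lay above replicates 4 and 5. That reverse order did not hold for Pdgfra, Pdgfb, Mgp, Col4a2, Itgbl1, Svep1, Lrtm2 or Cyp1b1. Ghr, the growth hormone receptor, rose with no overlap, at 16627, 19014, 17988, 17400.3 and 12624 with peretinoin and 10416, 10770, 10230.4, 12241 and 12615 on the basal diet (log2 0.56 ± 0.12, adjusted p = 0.0106; 0.14 with the covariate, and 2 of 3 probe sets above 0, with a mean of 0.15 and an adjusted p of 0.495). Elovl3, Nudt7 and Ghr lost their calls in 6, 4 and 1 of the 10 fits without 1 array. The list's mean log2 signal was 10.8, 11.2, 10.6, 12.8 and 12.8 in basal diet replicates 1 to 5, and its part in the other results was not tested. Of 16 listed genes with higher expression in female mouse liver 6 were measured and 0 called. Their median was -0.57 (-0.43 with the covariate), with 4 below 0 and 2 above. Of 4 measured sex chromosome genes 0 were called. Xist, of the X chromosome, had -0.11 ± 0.24. The Y chromosome genes had 0.27 ± 0.17 (Kdm5d), 0.04 ± 0.15 (Eif2s3y) and -0.03 ± 0.11 (Uty). The sex of the single animals was not tested.

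Other hepatocyte functions held single calls, in lists of 13 to 28 measured genes. Over all genes 1.64% rose and 1.24% fell. Mbl1, mannose-binding lectin of the complement system, rose by 0.61 (SE 0.13, adjusted p = 0.0108), and its change was 0.15 with the covariate. Fabp1, the liver fatty acid carrier, rose by 0.42 (SE 0.09, adjusted p = 0.0113), Xbp1, a factor of the unfolded protein response, by 0.41 (adjusted p = 0.0276), Apoa2 by 0.36 (adjusted p = 0.0434), Acaa1b of peroxisomal oxidation by 0.39 (adjusted p = 0.044) and Cox7a2 of the respiratory chain by 0.38 (adjusted p = 0.0422). Cp, ceruloplasmin, rose by 0.37 on its brightest probe set (adjusted p = 0.046), while the mean of its 8 probe sets was lower by 0.09. With the Actb covariate the changes were 0.23 for Fabp1, 0.19 for Xbp1, 0.13 for Apoa2, 0.13 for Acaa1b, 0.16 for Cox7a2 and 0.05 for Cp. After quantile normalisation none of these 6 was called: Fabp1 had 0.087, Xbp1 0.25, Apoa2 0.064, Acaa1b 0.12, Cox7a2 0.14 and Cp 0.16 (adjusted p = 0.0917 to 0.528). Falls were Slc37a4, the glucose-6-phosphate transporter (log2 -0.99 ± 0.25, adjusted p = 0.028), Asl, argininosuccinate lyase of the urea cycle (log2 -0.74 ± 0.18, adjusted p = 0.0246), and Nr1i2, the xenobiotic receptor PXR (log2 -0.60 ± 0.16, adjusted p = 0.038). With 1 array left out, Mbl1 and Fabp1 each lost the call in 1 of 10 fits, Xbp1 and Asl in 5, Slc37a4 in 6, Nr1i2 in 7, Apoa2, Cox7a2 and Cp in 8, and Acaa1b in 9. The hepatocyte marker list had 0 calls of 9 and a median of 0.21 (0.08 with the covariate).

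Of the 22 listed genes of bile acid synthesis and transport, 0 were called. Cyp39a1, which fell, was not on that list. Cyp7a1, the rate-limiting enzyme, gave 3712, 2719.7, 2769.5, 9085 and 4251 with peretinoin and 5582, 4934, 2285, 4828 and 5996 on the basal diet (log2 -0.15 ± 0.35, adjusted p = 0.863). Of 22 genes of fatty acid oxidation and PPAR-alpha targets only Acaa1b was called: Cpt1a, of mitochondrial import, had -0.31 ± 0.17 (adjusted p = 0.33) and Cyp4a14 0.30 ± 0.90 (adjusted p = 0.894). Of 19 listed genes of lipid droplets and fatty acid uptake only Fabp1 was called, and Cidec, a droplet protein, had -0.49 ± 0.68 (adjusted p = 0.753). Fitm1, which rose, was not on that list. The medians of these 3 lists were 0.09, -0.17 and 0.20, and with the covariate -0.11, -0.18 and 0.12. Pnpla3, a lipase of lipid droplets and retinyl esters, had 0.52 ± 0.27 (adjusted p = 0.28).

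Genes of growth and vessels did not pass either. The 24 cell cycle genes had 0 calls and a median of 0.02, and of 0.81 with the Actb covariate. Ccnd1, cyclin D1, gave 1928, 3087, 1082, 3467 and 5241 with peretinoin and 2299, 1582, 1027, 2274 and 2949 on the basal diet (log2 0.44 ± 0.34, adjusted p = 0.501). Myc had -0.78 ± 0.51 (adjusted p = 0.413) and Afp, alpha-fetoprotein of fetal and regenerating liver, 0.54 ± 0.36 (adjusted p = 0.426). Of 25 Wnt and beta-catenin genes 2 fell, beside 1.24% of all genes, and 0 rose: Dkk3, a secreted Dickkopf family protein (log2 -0.76 ± 0.18, adjusted p = 0.0208), and Fzd1, a Wnt receptor (log2 -0.44 ± 0.11, adjusted p = 0.024). The median of the 25 was 0.24 (0.08 with the covariate). The calls of Dkk3 and Fzd1 were lost in 5 and 3 of the 10 fits without 1 array. Ctnnb1, beta-catenin, was nearly even, at 10713, 10989.7, 11419, 11249 and 11131 with peretinoin and 10517, 11095, 10515, 11834 and 11834 on the basal diet (log2 -0.01 ± 0.07). Targets of beta-catenin in hepatocytes had positive changes that did not pass, Lgr5 of 1.05 ± 0.33 (adjusted p = 0.0671) and Glul of 0.85 ± 0.33 (adjusted p = 0.139). None of 13 VEGF and angiopoietin ligands and receptors was called; Vegfa had 0.12 ± 0.15, Kdr 0.05 ± 0.22 and Tek -0.47 ± 0.25 (adjusted p = 0.715, 0.934 and 0.29). None of 16 circadian clock genes was called, and Per2 had the lowest p of them (log2 -1.20 ± 0.36, adjusted p = 0.0553). The medians were 0.05 for the vessel genes and -0.20 for the clock genes, and 0.23 and -0.45 with the covariate.

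**Figure D4:**
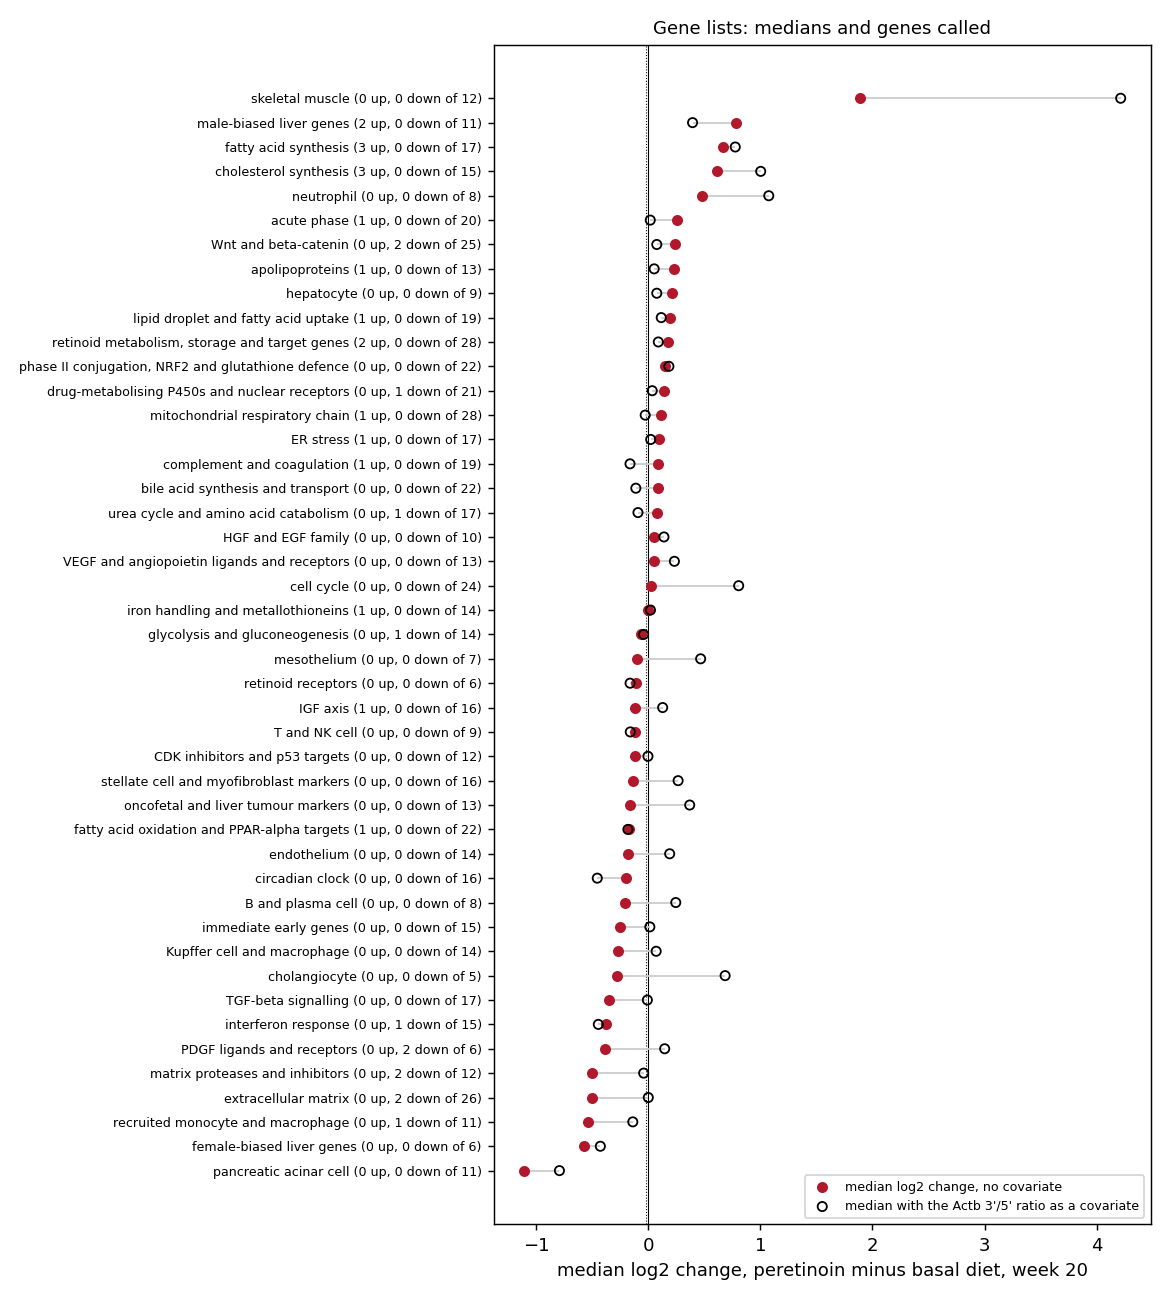
Median log2 change of each gene list with at least 5 measured genes, peretinoin minus basal diet at week 20, without (filled) and with (open) the Actb 3'/5' ratio as a covariate. The dotted line is the median of all genes, -0.02, and the counts called up and down are beside each name. The matrix, protease, PDGF and TGF-beta lists lie between -0.50 and -0.35 without the covariate and between -0.04 and 0.15 with it, while the cholesterol and fatty acid synthesis lists lie between 0.62 and 0.66 without it and between 0.78 and 1.004 with it. The covariate also raised the median of the skeletal muscle list, high in peretinoin replicates 3 and 5, from 1.89 to 4.21. It raised that of the neutrophil list from 0.48 to 1.08.

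The 3 comparisons among the week 20 groups share arrays, so their values are given side by side. Against wild type, 1603 genes (12.2%) were called higher and 673 (5.14%) lower with peretinoin, and 2071 (15.8%) higher and 1031 (7.87%) lower on the basal diet. Peretinoin-fed livers lay above wild-type livers by 3.05 ± 0.29 for Pdgfra, 3.06 ± 0.23 for Pdgfrb, 3.56 ± 0.29 for Col1a1 and 2.74 ± 0.35 for Mgp on the log2 scale. Basal diet livers lay above wild-type livers by 4.31 ± 0.29 for Pdgfra, 3.39 ± 0.23 for Pdgfrb, 4.11 ± 0.29 for Col1a1 and 4.21 ± 0.35 for Mgp. For Insig1 the differences from wild type were 0.41 ± 0.14 with peretinoin and -0.72 ± 0.14 on the basal diet, and for Derl1 0.26 ± 0.20 and -0.95 ± 0.20 in the same order. The median of the matrix list against wild type was 1.66 with peretinoin and 2.20 on the basal diet, and that of the cholesterol synthesis list was 0.42 with peretinoin and -0.23 on the basal diet.

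At week 48 the same diets were compared in 5 and 5 other livers, which share no array with week 20. There 95 genes were called (0.725%), 20 higher and 75 lower with peretinoin. Called the same way at both ages were 8 genes, 2.12% of the week 20 calls and 8.42% of the week 48 calls, and 1, 1810008I18Rik, was called in opposite ways. Cp was the 1 gene higher at both ages (0.37 at week 20 and 0.46 at week 48). The 7 lower genes were Mgp (-1.76 at week 48), Itgbl1 (-1.39), Timp2 (-1.07), Cyp1b1 (-0.99), Mdk, the growth factor midkine (-0.80), Gpm6b (-1.10) and Art4 (-0.81). At week 20 Mdk had -0.73 ± 0.18, Gpm6b -0.94 ± 0.20 and Art4 -1.01 ± 0.20. Pdgfra had -1.09 at week 48 (adjusted p = 0.0678), close to its week 20 value but not called.

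The peretinoin effect itself differed between the ages in 89 genes (0.679%; effect at week 48 minus effect at week 20, 40 positive and 49 negative). Of these, 51 were called at week 20. The 5 of smallest p were 1810008I18Rik, Serpina7, Dcps, Ripk4 and Rpa3. The transcript 1810008I18Rik had signals of 1221, 1625, 1238, 1390 and 1000.3 with peretinoin and 277.3, 381, 589.6, 962.2 and 743.4 on the basal diet at week 20, a change of 1.22 ± 0.28, and a change of -1.37 at week 48 (difference -2.59 ± 0.39, adjusted p = 0.00263). Serpina7 had 2.06 at week 20 and -0.54 at week 48 (difference -2.60 ± 0.43, adjusted p = 0.006). Dcps, the scavenger decapping enzyme, had 0.34 at week 20, which was not called, and -0.49 at week 48 (difference -0.83 ± 0.14, adjusted p = 0.006). Ripk4, a kinase, had -0.70 and 0.42 (difference 1.12 ± 0.20, adjusted p = 0.0135), and Rpa3, a subunit of replication protein A, 0.43 and -0.45 (difference -0.88 ± 0.16, adjusted p = 0.0135), week 20 first.

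All 3 risen genes of cholesterol synthesis differed between the ages. These genes, and the largest rises and falls below, were picked for their week 20 values. The difference reuses the week 20 arrays, so this choice favours a called difference. Insig1 had a change of 0.07 at week 48 (difference -1.07 ± 0.20, adjusted p = 0.0135), Pmvk of -0.71 (difference -1.70 ± 0.36, adjusted p = 0.0286) and Sc5d of -0.34 (difference -0.92 ± 0.22, adjusted p = 0.0455). The median of the 15 genes was 0.62 at week 20 and -0.34 at week 48, with 0 called at week 48. No gene of the fatty acid synthesis, PDGF, matrix or protease lists was called in the difference. The matrix list had a median of -0.23 at week 48 with 1 gene called lower. Among the largest rises, Hectd2os (-1.05 at week 48), Derl1 (0.04) and Sucnr1 (-0.47) also differed between the ages (adjusted p = 0.0135, 0.0423 and 0.0174), as did Slc37a4 among the falls (0.61, adjusted p = 0.0315). At week 48 the Actb ratio was 1.42 to 1.94 with peretinoin and 1.30 to 1.57 on the basal diet. With the ratio as a covariate 10 genes were called in the difference. Of the 20 single arrays left out in turn, 16 moved the count of 89 by over 1.5 times, to between 11 (without basal diet replicate 3 of week 20) and 215 (without basal diet replicate 4 of week 20).

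**Figure D5:**
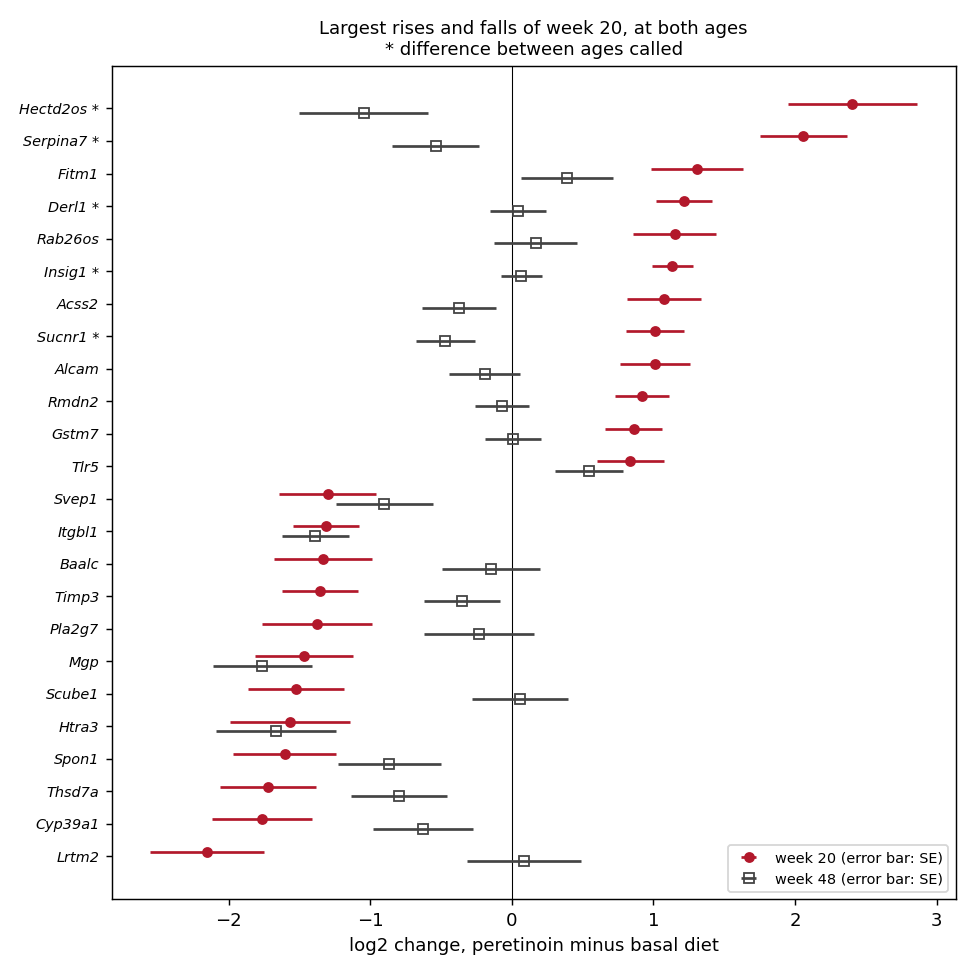
Log2 change, peretinoin minus basal diet, of the 12 largest rises and 12 largest falls of week 20, at week 20 (filled) and week 48 (open), with moderated standard errors as bars. An asterisk marks a called difference between ages, and Mgp, Itgbl1 and Htra3 have about the same value at both ages, while Hectd2os and Serpina7 lie on opposite sides of 0. The genes were chosen by their week 20 values, which favours larger changes at that age.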

How the data were processed

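Liver RNA of 34 samples was hybridised to 1 array each; total RNA was taken with a column kit and labelled with biotin, per the labels' protocols. The authors deposited linear signal intensities from MAS5, which the submitters' processing notes name (its version is not given in the sources used here), and all arrays had a trimmed mean of 500.003 to 500.004. Of 45101 probe sets, 64 were controls, 34945 had exactly 1 gene symbol in the platform's table, 932 several and 9160 none, and 0 symbols changed through the RefSeq gene table. Array medians of 71.5 to 95.7 show the signal level; the files hold no counts, so the number of arrays limits the precision.

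From these values log2(signal + 16) was computed. The 60% of probe sets with the highest mean over all arrays were kept, and per gene the brightest probe set with 1 symbol, which left 13099 genes. All 7 groups entered 1 linear model (lmFit and eBayes of limma 3.58.1 under R 4.3.3, the prior variance following signal level), with Benjamini-Hochberg adjustment over all genes, and tested on simulated data. Alternatives were the offset, the filter, the scaling, the probe set rule, the groups in the fit, array weights, the Actb or Gapdh ratio as a covariate, a replicate block and each array left out. Leaving out the arrays with muscle or pancreas transcripts was added after the data were seen. No array was a duplicate (highest correlation 0.982).

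The comparison, the 48 gene lists (35 pathway and 13 marker lists) and the rule for named genes were chosen with earlier results of these data known. The rule took a panel of retinoid, PDGF, matrix, growth, vessel and lipid genes, then the 12 largest rises and 12 largest falls among called genes with non-overlapping groups, without clones and unnamed transcripts. It added the 2 to 4 members of smallest p in each list and the 5 genes of smallest p in the difference between ages. Not all of these list members are named above. Several lists have fewer or none named, and the 1 called gene of the iron handling list, which rose, is left out. Some genes of the panel are not reported here. Genes called at both ages were named after their values were seen.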

Additional observations from a re-analysis of the deposited data

Results flagged for a closer look

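Chance puts about 1 in 20 groups of 5 arrays past the limit used for a single array that stands apart, and 11 of 202 groups of the named genes and quality measures did so. In peretinoin livers, replicate 4 was low for Thsd7a (signal 9.1, the others 66.7 to 86.2), and replicate 3 was low for Kdr (382.6 against 557.7 to 611.7) and Afp (393.7 against 457.3 to 468.7). Replicate 5, which carries muscle transcripts, was low for Mbl1 (5523.6 against 7888 to 9064). On the basal diet, replicate 3 was low for Baalc (73.8) and Cyp7a1 (2285.3) and high for Cyp26a1 (4360.5 against 2068 to 2423). Replicate 5, the array with pancreatic transcripts (mean log2 of 11.2), was low for Timp2 (1518.7 against 2227 to 2399), high for Cox7a2 (24230.3 against 20389 to 21414) and high in the ratio of the 3' to the middle Actb probe set (1.52 against 1.37 to 1.40).

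The peretinoin effect differed between the ages, by limma's test of the difference (week 48 minus week 20), in 12 named genes. These were named for their week 20 values or for their p in this test. The test reuses the week 20 arrays, so the choice favours called differences. The differences were -3.45 ± 0.65 for Hectd2os, -2.60 ± 0.43 for Serpina7, -2.59 ± 0.39 for 1810008I18Rik, -1.70 ± 0.36 for Pmvk and -1.48 ± 0.29 for Sucnr1. They were -1.18 ± 0.28 for Derl1, -1.07 ± 0.20 for Insig1, -0.92 ± 0.22 for Sc5d, -0.88 ± 0.16 for Rpa3 and -0.83 ± 0.14 for Dcps, and positive for Slc37a4 (1.61 ± 0.36) and Ripk4 (1.12 ± 0.20).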

How the results depend on the processing

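The 378 calls of week 20 became 229 in a fit of the 2 groups alone, 1516 with array quality weights, 0 with the Actb ratio and 1 (Insig1) with the Gapdh ratio as a covariate, and 51 to 879 with 1 array left out. Of the 378 calls 56.9% were higher, against 75.5% after median centring, 36.7% for the mean of all probe sets and 44.5% in the fit of the 2 groups alone. The 89 genes that differed between ages became 136 with the upper 40% of probe sets, 48 with no filter and 58 after median centring. They became 54 for the mean of all probe sets, 27 in the fit of the compared groups and 407 with array weights. With the Actb and Gapdh covariates there were 10 and 56. Without the arrays carrying other tissues, of both ages, there were 146, and with 1 array left out 11 to 215. The replicate block gave 347 and 66 calls; replicate numbers did not pair the arrays (correlations of same-numbered deviations between -0.08 and 0.06). The Actb ratio differed by 0.441 to 0.681 (log2) without 1 array. The causes of these moves were not tested.

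Of 59 called named genes, Cp alone changed sign, to -0.091 for the mean of its probe sets. Genes that were not called turned sign as follows. With the Actb covariate the changes were Rarb 0.28, Pdgfrb 0.16, Col1a1 0.10, Acta2 0.027, Ctnnb1 0.057, Myc 0.41, Tek 0.036, Cyp7a1 0.0396 and Cidec 0.33. With the Gapdh covariate they were Cyp26b1 -0.42, Rarb 0.22, Pdgfrb 0.012, Ctnnb1 0.11, Myc 0.13, Tek 0.038, Cyp7a1 0.39 and Cidec 0.86. Ctnnb1 had 0.065 after median centring, Vegfa -0.19 for the mean of its probe sets, and Cyp26b1 -0.025 and Kdr -0.018 with array weights. Without the arrays carrying other tissues Cyp26b1 had -0.57, Ctnnb1 0.00063, Cyp7a1 0.11 and Cyp4a14 -0.0302. With 1 array left out the ranges crossed 0 for Cyp26a1 (-0.27 to 0.069), Ctnnb1 (-0.027 to 0.016), Kdr (-0.018 to 0.17), Cyp4a14 (-0.32 to 0.64), Cyp26b1 (-0.14 to 0.30) and Cidec (-0.79 to 0.022).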
